A study of Drosophila melanogaster with 53 samples.

Results

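Respiratory complex I of *Drosophila melanogaster* muscle was followed through 32 nuclear genes. They are the genes with a symbol that starts with ND-, with 1 such gene left out of the set, out of 10657 genes listed for males, 10222 and 10258 for females of 2 mutant sets and 10400 for axenic females. By the place of their human counterparts in the enzyme, 6 belong to the N module, 8 to the Q module, 7 to the proximal and 9 to the distal membrane arm, and 2 are a carrier protein and a gene of uncertain place. All 32 were listed for males, the Atg8a and daw set and the axenic flies. In the mir-252 and foxo set 31 were found, through older gene symbols, and ND-13B was not matched. Every member found had a mean of at least 10 normalised reads in each table of libraries and entered the tests.

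Complex I is the entry point of the respiratory chain. Its N module oxidises NADH, its Q module passes the electrons to ubiquinone, and its membrane arm pumps protons out of the mitochondrial matrix. The subunits come from nuclear and mitochondrial genes, and flight muscle, which works almost wholly by oxidative metabolism, is among the tissues richest in the enzyme.

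The study sequenced polyadenylated RNA in 53 samples of 19 groups, of which muscle is described here. Flies were kept at 25 °C, and all controls (WT) were the strain 5905, which carries w1118. Males of 5905 were taken at 3, 15, 30 and 45 d after eclosion on standard food. All mutants were females at 3 d after eclosion. The first mutant set held WT, atg8ac320/c320, daw-3'UTRc82/c82 and the double mutant daw-3'UTRc82/c82; foxoc431/c431. The other held WT, mir-252c328/c328, foxoc431/c431, the double mutant mir-252c328 foxoc431 and that double mutant with dawc458/+. Axenic females, raised on antibiotic food, were WT or foxoc431/c431. Each group had 3 libraries. No label ties an allele to muscle alone. Nothing in the labels ties the libraries of a group to different animals. A p-value here is thus a statement on the spread among the sequenced samples only, and that spread may be technical.

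Depth was 2358162 to 4078819 reads on listed genes in the 39 libraries with values of their own. Of 25 muscle markers 23 had reads in males, and 24 and 25 in the first and the other female set, so the defining markers of the labelled tissue were present, though yolk protein, gut and fat body genes were also read. Atg8a stood at 49.59 ± 9.44 normalised reads in the libraries labelled Atg8a, against 3145 ± 630 in WT (SD, n = 3, log2 -5.95, limma adjusted p = 2.115e-12). In contrast, foxo mRNA was not lower in any library group labelled foxo. It stood at 753.5 ± 65.0 against 582.4 ± 43.4 in WT in conventional females (SD, n = 3, log2 0.37, limma adjusted p = 0.04547), and what the foxo allele removes from the gene was not given by these sources. The miR-252 product itself was not measured. Groups are called by their labels below, and statements on foxo and mir-252 rest on those labels alone.

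The male series asks how muscle RNA changes as flies age. Complex I genes fell at every later age. Relative to 3 d, falls were called for 27 of 32 members by 15 d, for 27 by 30 d and for 28 by 45 d, and none rose (limma, adjusted p under 0.05). The share of all 8393 tested genes that fell was 5.62%, 8.09% and 10.5% at these ages. With only the groups compared in the fit, 10, 13 and 21 members fell at 15, 30 and 45 d, against 1.86%, 3.35% and 4.58% of all genes. The median log2 changes of the 32 genes were -1.67, -1.55 and -1.82, while the medians of all tested genes were 0.0555, 0.0671 and 0.0696. The median member kept 28.9%, 30.2% and 25.4% of its mean 3 d level in normalised reads at 15, 30 and 45 d. Normalised reads over all listed genes summed to 4531579, 4568225 and 5421108 at 3 d and to 2522896 to 2868548 later. As a share of these sums, the summed complex I count changed less. It was 1.32%, 1.3% and 2.17% in 3 d replicates 1 to 3, and at most 1.12% at 15 d. It was 1.28%, 1.2% and 1.14% at 30 d and 0.975%, 1.03% and 1.04% at 45 d. These sums include reads on mitochondrial genes, which also fell with age. Without those reads the share was 1.8%, 1.73% and 3.31% at 3 d. It was then 1.17% to 1.29% at 15 d, 1.25% to 1.4% at 30 d and 1.05% to 1.12% at 45 d, lower in every later library than in any 3 d one. In bulk muscle, fewer cells of a type and less RNA per cell cannot be told apart.

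One library stands apart and touches every comparison with 3 d above, the kept percentages included. At 3 d, replicate 3 was the highest of its group for 31 of 32 members, ND-75 being the exception, where it was lowest. Over all listed genes the log2 values of replicate 3 correlated at 0.90 with those of replicates 1 and 2. Those 2 correlated at 0.97 with each other, so replicate 3 stood apart beyond complex I. Its summed complex I count was 117800 normalised reads, against 59880 and 59230 in replicates 1 and 2. Without it, 30, 27 and 31 members fell at 15, 30 and 45 d, with medians of -1.28, -1.14 and -1.39. In that fit 1388, 1804 and 2094 of all 8364 tested genes fell. The ages share their 3 d libraries, so the results at the 3 later ages are not independent.

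The library ranges point the same way as the fits. All 3 d libraries lay above all 15 d libraries for 31 members (12.1% of all genes were lower without overlap), above all 30 d libraries for 28 (14.5%) and above all 45 d libraries for 32 (15.3%). Of the 32 members, 28 had every 3 d library above every library of all later ages. The lowest mean fell at 45 d for 28 members and at 15 d for the other 4.

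**Figure D1:**
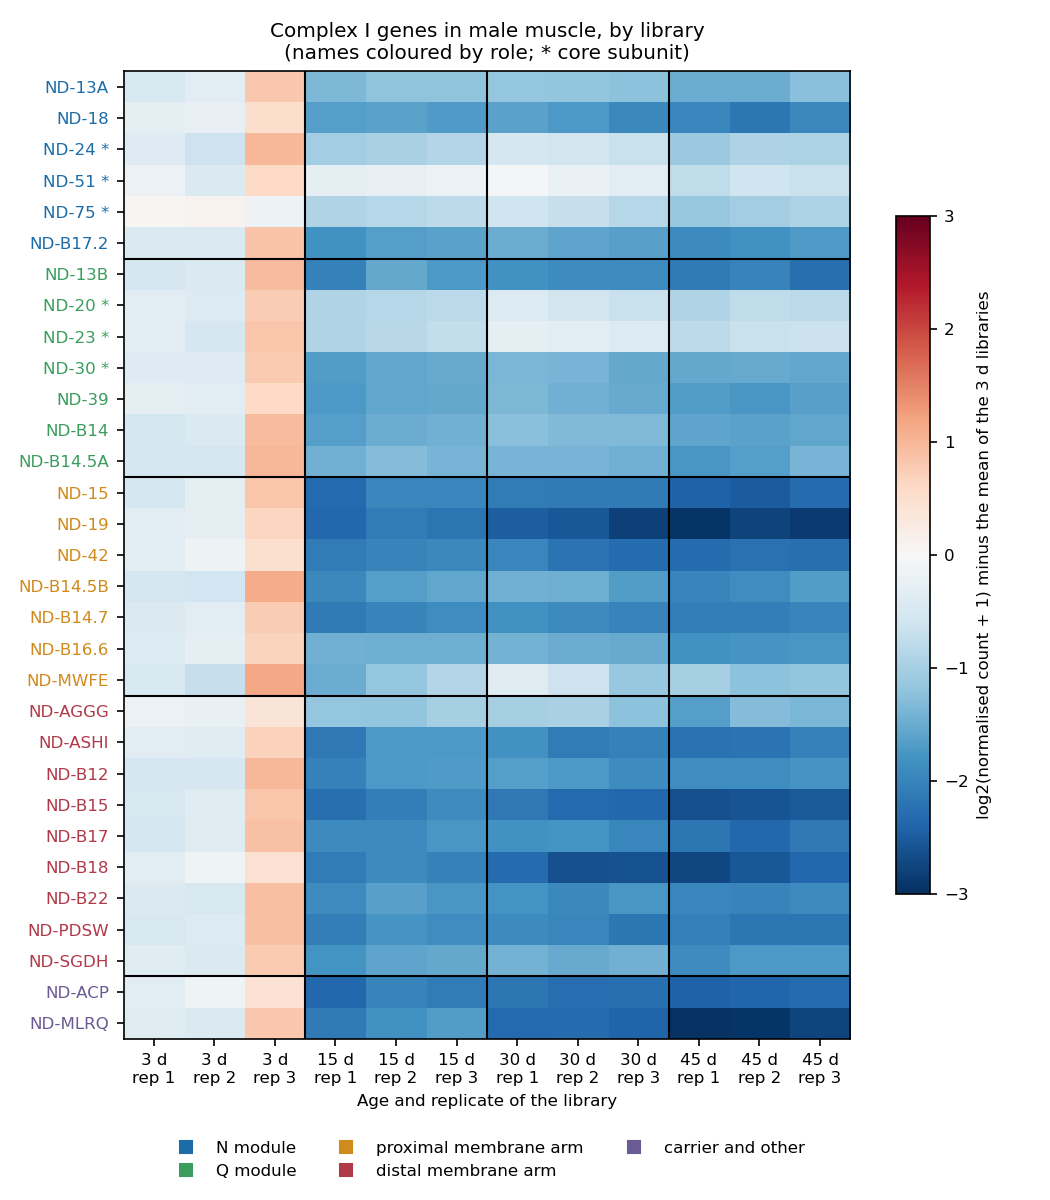
Heat map of 31 of the 32 complex I genes (rows, ordered by role) in the 12 male muscle libraries (columns, 3, 15, 30 and 45 d), with colour for the log2 level relative to the mean of the 3 d libraries. Colours drop between 3 d and 15 d and change little afterwards, replicate 3 at 3 d is the highest of its group in 30 of 31 rows, and ND-51 keeps the most of its 3 d level.

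The N module, which holds the NADH site and most iron-sulphur clusters, had the smallest median change, -1.23 on the log2 scale at 45 d, and 4 of its 6 genes fell. ND-75, the counterpart of NDUFS1 and a carrier of iron-sulphur clusters, gave 5792, 5998 and 4978 normalised reads at 3 d, 2985, 3095 and 3214 at 15 d, 3669, 3430 and 3095 at 30 d, and 2519, 2700 and 2874 at 45 d. Its 3 d libraries were all higher than any later one, and the fall at 45 d was -1.05 ± 0.13 on the log2 scale (SE, limma adjusted p = 0.0001887). ND-18, the counterpart of the accessory subunit NDUFS4, gave 1344, 1396 and 2377 reads at 3 d and 425.4, 364.4 and 430.5 at 45 d. It fell by 2.02 at 45 d (SE 0.21, limma adjusted p = 3.459e-05), the largest change of a called gene in this module. ND-B17.2, the counterpart of NDUFA12, fell furthest of the module's called genes at 15 d, by 1.69 (limma adjusted p = 0.002471).

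The N module genes not called at 45 d were the NADH-binding flavoprotein gene ND-51 (NDUFV1) and its partner ND-24 (NDUFV2). ND-51 gave 5572, 4603 and 9529 normalised reads at 3 d, 5109, 5282 and 5508 at 15 d, 5988, 5488 and 5022 at 30 d, and 3705, 4136 and 3950 at 45 d. The 3 d and 15 d ranges overlap, as do those of 3 d and 30 d, and the 45 d libraries are below all 3 d ones. Without replicate 3 at 3 d its log2 changes were 0.06, 0.12 and -0.37 (limma adjusted p = 0.647, 0.352 and 0.00447), so this gene fell only at 45 d in that fit. ND-24 gave 2427, 2065 and 6355 reads at 3 d and 1468, 1675 and 1631 at 45 d, all below the 3 d ones. Without replicate 3 at 3 d its log2 changes were -0.46, -0.09 and -0.49 (limma adjusted p = 0.000787, 0.461 and 0.000225), so in that fit ND-24 fell at 15 and 45 d.

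The Q module takes electrons to ubiquinone, and 7 of its 8 genes fell at 45 d, with a median of -1.56. ND-13B, the counterpart of the accessory subunit NDUFA5, gave 539.3, 564.7 and 1488 normalised reads at 3 d, 188.2, 262.4 and 231.9 at 15 d, 215.8, 206.8 and 206.5 at 30 d, and 176.5, 189.7 and 159.5 at 45 d. It was lower in every later library than in any 3 d library, and fell by 2.13 at 45 d (SE 0.32, limma adjusted p = 0.0006249). ND-20, the counterpart of NDUFS7, which carries the last iron-sulphur cluster before ubiquinone, had the smallest called change of the module at 45 d, -0.83 ± 0.25 (SE, limma adjusted p = 0.04218). Its libraries gave 2450, 2348 and 5273 reads at 3 d and 1655, 1846 and 1780 at 45 d. ND-23, the counterpart of NDUFS8, was the member of the module that was not called at 45 d. It gave 2274, 1992 and 5094 reads at 3 d, 2369, 2242 and 2138 at 30 d and 1640, 1804 and 1834 at 45 d, so the 3 d and 30 d ranges overlap, while every 45 d library is below every 3 d one. Without replicate 3 at 3 d, ND-23 fell at 15 and 45 d (log2 -0.41 and -0.28, limma adjusted p = 0.00145 and 0.0119).

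In the proximal membrane arm 6 of 7 genes fell at 45 d, with a median of -2.05. ND-19, the counterpart of NDUFA8, a subunit of the face toward the intermembrane space, gave 1241, 1279 and 2476 normalised reads at 3 d, 306.6, 369.1 and 345.5 at 15 d, 281.3, 268.1 and 226.2 at 30 d, and 205.9, 228.7 and 215.7 at 45 d. No later library came near the 3 d libraries, and the level at 45 d was 13.0% of that at 3 d (log2 -2.86 ± 0.24 SE, limma adjusted p = 7.208e-06). ND-B16.6, the counterpart of NDUFA13, had the smallest called change of the arm, from 1275, 1400 and 2675 reads at 3 d to 475.2, 495.6 and 503 at 45 d (log2 -1.78 ± 0.23 SE, limma adjusted p = 0.0002165). ND-MWFE, the counterpart of NDUFA1, was not called. It was the lowest member in males, with 20.19, 16.94 and 64.33 reads at 3 d and 13.58, 11.52 and 11.78 at 45 d, and its annotated exons share 19.8% of their bases with TppII on the other strand and 15.2% with Nrk on the same strand.

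All 9 genes of the distal membrane arm fell at 45 d, with a median of -2.13. ND-B15, the counterpart of NDUFB4, gave 733.9, 793.4 and 1814 normalised reads at 3 d, 212.4, 241.1 and 275.5 at 15 d, 230.7, 201.7 and 199.1 at 30 d, and 163.7, 167.6 and 176.7 at 45 d. Its 3 d libraries were far above all others, and its change at 45 d was -2.58 ± 0.28 (SE, limma adjusted p = 5.84e-05). ND-B18, the counterpart of NDUFB7, had the arm's largest change at 30 d, -2.51 ± 0.20 (SE, limma adjusted p = 8.04e-06), from 798.8, 924.6 and 1369 reads at 3 d to 201.7, 161.7 and 164.5. ND-AGGG, the counterpart of NDUFB2, had the smallest change of the arm at 45 d, from 402.3, 388.2 and 593.8 reads to 143.3, 181.7 and 174.9 (log2 -1.44 ± 0.18 SE, limma adjusted p = 0.0001974). Even this gene had no 45 d library inside the range of the 3 d libraries.

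Both remaining genes fell. ND-ACP encodes the mitochondrial acyl carrier protein (NDUFAB1), which also serves fatty acid and iron-sulphur cluster synthesis. It gave 1668, 1882 and 2798 normalised reads at 3 d, 401.6, 512.8 and 483.6 at 15 d, 460.6, 423.8 and 428.6 at 30 d, and 385.4, 395.4 and 412.4 at 45 d. Most of this fall had taken place by 15 d, and the change at 45 d was -2.37 ± 0.19 (SE, limma adjusted p = 5.255e-06). ND-MLRQ is the counterpart of NDUFA4, which in mammals is counted with complex IV. It gave 3938, 3752 and 8945 reads at 3 d, 1167, 1449 and 1592 at 15 d, 1012, 1031 and 959.9 at 30 d, and 646.4, 656.9 and 758.6 at 45 d. Each age lay wholly below the age before, and the level at 45 d, 12.4% of that at 3 d, was the lowest share of all 32 members (log2 -2.89 ± 0.28 SE, limma adjusted p = 2.309e-05). Without replicate 3 at 3 d its log2 change at 45 d was -2.49, and that of ND-19 was lower, -2.54.

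The order of levels among members changed with these unequal falls. On the scale of normalised reads per kilobase of annotated exon, ND-MLRQ ranked 1 at 3 d (10310 ± 5483, SD, n = 3) and 6 at 45 d (1278 ± 115.1). At 45 d ND-51 ranked 1 (2472 ± 136) and ND-23 ranked 2 (2148 ± 128), and these were 3 and 4 at 3 d. ND-75 went from rank 20 to rank 9. ND-MWFE ranked 32 at both ages.

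The members that kept most of their level were largely the catalytic ones. The 7 nuclear-encoded core subunits, those conserved from bacteria, include ND-75, ND-51, ND-24, ND-30, ND-20 and ND-23. This division was made after the values were seen, and no test of it is given. Of the core genes 3, 3 and 4 fell at 15, 30 and 45 d, with medians of -0.847, -0.587 and -0.996. Of the 25 other members 24 fell at each age, with medians of -1.76, -1.83 and -2.02. Without 3 d replicate 3 the core medians were -0.483, -0.162 and -0.494, and those of the others were -1.32, -1.39 and -1.65. In that fit 6, 3 and 7 core genes fell.

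As a share of the summed complex I count, the core genes made up 41.9%, 39.8% and 34.8% in the 3 d libraries. The share was 57.5%, 55.5% and 56.1% at 15 d, 60.1%, 59.8% and 58.8% at 30 d, and 56.9%, 58.6% and 57.0% at 45 d. No library of a later age came within the 3 d range. Replicate 3 at 3 d had the lowest share, and the gap remains in the other 3 d libraries. In females of 3 d the share ran from 39.2% to 41.9% in the Atg8a and daw set and from 39.6% to 45.0% among the mir-252 and foxo libraries, mutants included.

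**Figure D2:**
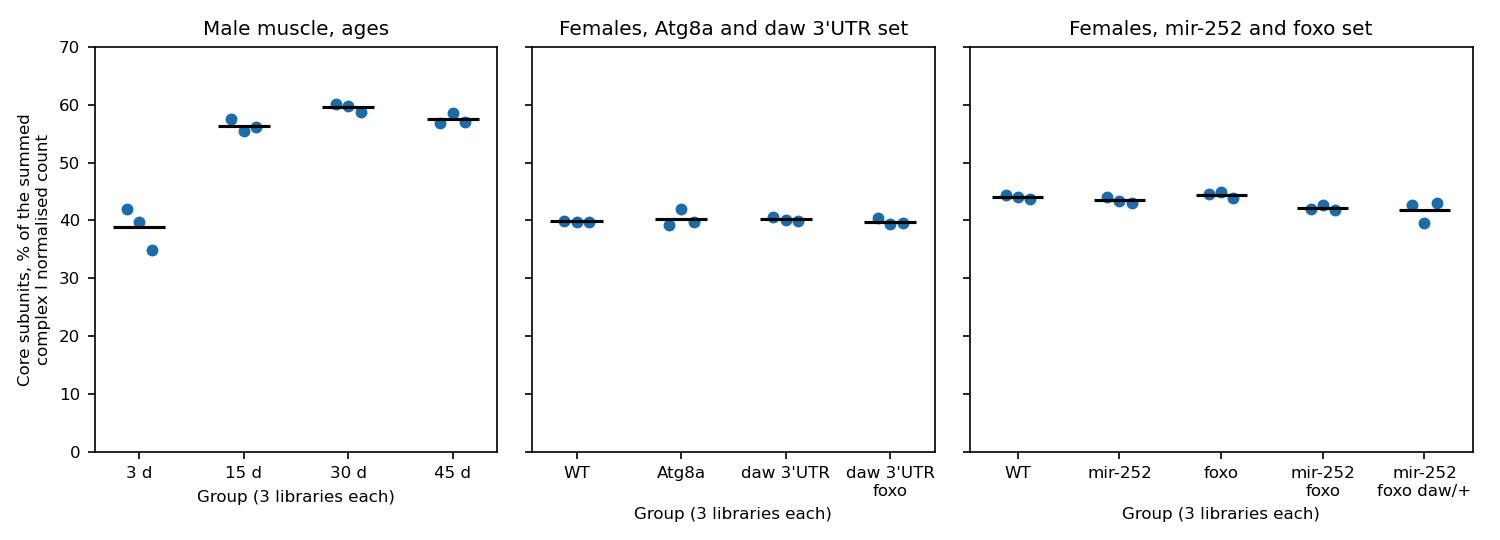
Share of the summed complex I normalised count that comes from the 7 core subunits, in percent, for each library (points) by group. Male libraries lie at 34.8% to 41.9% at 3 d and at 55.5% to 60.1% at the 3 later ages, and the female libraries, all at 3 d, lie between 39.2% and 45.0%.

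After 15 d no member passed in the fit with all ages, in which the spread also took in the 3 d libraries. Between 15 d and 30 d no member passed the test (limma), the median was 0.0223, 1 member had an unadjusted p under 0.05, and edgeR and DESeq2 also called 0. The share of all genes called was 0.0834%. The ranges of the libraries did not overlap for 9 members, 6 higher and 3 lower at 30 d, against 25.8% of all genes. The smallest p belonged to ND-B18 (log2 -0.49 ± 0.20 SE, limma adjusted p = 0.9889) and then ND-23 (0.48 ± 0.28 SE, limma adjusted p = 0.9999). Between 30 d and 45 d again none passed (limma, edgeR and DESeq2), with 0.0% of all genes called by limma and 2 members at an unadjusted p under 0.05. Among them was ND-75 (log2 -0.33 ± 0.13 SE, limma adjusted p = 0.9998). All 32 log2 values of this step were negative, with a median of -0.27, and 20 members had every 45 d library below every 30 d library, against 13.0% of all genes. With only the groups compared in the fit, 6 members were called from 15 d to 30 d, 3 higher and 3 lower, against 8.02% of all genes. In the same kind of fit 10 members fell from 30 d to 45 d, against 2.3% of all genes.

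The rest of the respiratory chain fell in the same male libraries. All 4 complex II genes, all 8 of complex III and all 13 of complex V fell at each later age, and 8, 7 and 8 of 9 complex IV genes did. Their medians at 45 d were -1.66, -2.03, -2.53 and -2.28 for complexes II, III, V and IV, against -1.82 for the 32 complex I genes. Of 7 mitochondrially encoded complex I genes 5 fell at each age, with medians of -2.12, -2.37 and -2.75. At 45 d mt:ND4, a proton-pumping subunit, changed by -3.08 and mt:ND5 by -2.75, while mt:ND2 (-2.32) and mt:ND4L (-3.16) did not pass (limma adjusted p = 8.249e-07, 1.928e-05, 0.05979 and 0.05716). Summed complex I over summed complex V counts was 0.402 to 0.706 at 3 d and 1.1 to 1.15 at 45 d.

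Of the complex I genes without an ND- symbol, NP15.6, a structural subunit, fell at 15, 30 and 45 d, with log2 changes of -2.45, -2.66 and -2.9 (limma adjusted p = 8.943e-05, 3.197e-05 and 1.239e-05). The assembly factor genes sicily and CIA30 had values below 0 at 45 d that did not pass (log2 -0.57 and -0.91, limma adjusted p = 0.05542 and 0.09153). Of 7 regulators of mitochondrial biogenesis, 2 rose and 2 fell at 45 d. The co-activator gene srl, the fly PGC-1, rose by 1.55 and Ets97D, a subunit of the GABP-type factor, by 0.78 (limma adjusted p = 0.01569 and 0.04487). TFAM, which packages mitochondrial DNA, fell (log2 -0.66), as did mtTFB2, a mitochondrial transcription factor (-0.81) (limma adjusted p = 0.01097 and 0.01105).

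Other markers moved with age in these libraries. Of 23 muscle markers 17, 18 and 20 fell at 15, 30 and 45 d, and their summed count went from 165100 to 310800 at 3 d to 51540 to 53930 at 45 d. Of 6 tested fat body markers 4 rose at 45 d, with sums of 10910 to 22220 at 3 d and 27830 to 33600 at 45 d. All 3 tested eye markers fell at 45 d, from sums of 31.72 to 955.7 to sums of 3.625 to 12.41. Testis markers summed to at most 90.43 in any male library, and 5 of 13 had no reads. Relative to the summed muscle markers, complex I stood at 0.246, 0.191 and 0.713 at 3 d, with replicate 3 the last, and at 0.459 to 0.52 at 45 d. Reads on mitochondrial genes were 26.4%, 24.9% and 34.4% of the 3 d libraries. They were 12.9% to 13.4% at 15 d, 8.67% to 8.81% at 30 d and 5.51% to 7.905% at 45 d, lower in every later library than in any 3 d one. The part of these markers and of the mitochondrial share in the fall of complex I was not tested.

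In females the study asked what loss of Atg8a, of the daw 3' UTR, of miR-252 and of foxo does to muscle RNA at 3 d. Complex I genes did not pass the test in libraries labelled Atg8a or daw 3' UTR alone. They were lower in libraries labelled mir-252, foxo or both, and in those labelled daw 3' UTR with foxo. Each set's mutants share 1 group of WT libraries, so their differences from WT are not independent of each other.

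Summed over members, complex I stood at 56360 ± 1210 normalised reads in WT of the first set, 56310 ± 4010 in libraries labelled Atg8a, 51840 ± 3780 in daw 3' UTR, and 42530 ± 1490 in daw 3' UTR foxo (SD, n = 3). In the other set it was 78690 ± 3060 in WT, 60210 ± 4220 in mir-252, 61000 ± 752 in foxo, 44310 ± 8360 in mir-252 foxo and 59610 ± 5280 in mir-252 foxo with daw/+ (SD, n = 3). The 3 mir-252 foxo libraries were the most spread, at 51780, 45860 and 35280. Levels were not compared across the sets, which were normalised apart.

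**Figure D3:**
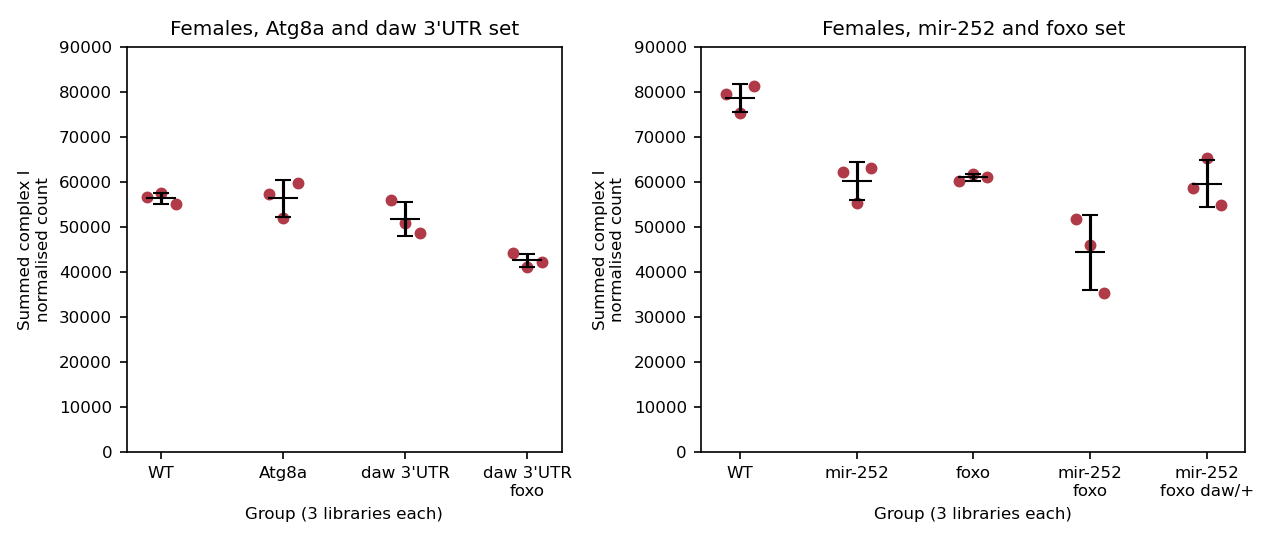
Summed normalised count of the complex I genes (y axis, normalised reads) in each library of 3 d females (points), by labelled genotype, with the mean and SD of 3 libraries as bars, in the Atg8a and daw set (left) and the mir-252 and foxo set (right). The daw 3' UTR foxo libraries, at 41170 to 44110, and the mir-252 foxo libraries, at 35280 to 51780, lie below all WT libraries of their sets.

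Against WT, no member passed in libraries labelled Atg8a (limma), where the median was 0.0021, 9.89% of all genes were called, 4 members had an unadjusted p under 0.05 and edgeR and DESeq2 called 0. The smallest p belonged to ND-B22 (NDUFB9) and ND-B17.2 (log2 -0.26 ± 0.09 and -0.26 ± 0.10 SE, limma adjusted p = 0.09398 and 0.09734). ND-B17.2 gave 2004, 2017 and 1892 normalised reads in WT and 1725, 1416 and 1810 in libraries labelled Atg8a. These ranges do not overlap, as for 7 members in all, 4 lower and 3 higher, against 28.7% of all genes. In the same comparison 3 of 4 complex II genes fell (median -0.315).

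Libraries labelled daw 3' UTR gave log2 values below 0 for 31 of 32 members, with a median of -0.13, but none passed (limma), 4 had an unadjusted p under 0.05 and edgeR and DESeq2 called 0. The share of all genes called was 3.12%. The library ranges did not overlap for 10 members, all lower than WT, against 10% of all genes. ND-13A, the counterpart of the zinc-binding N module subunit NDUFS6, had the smallest p (log2 -0.37 ± 0.10 SE, limma adjusted p = 0.07376), and ND-B14, the counterpart of NDUFA6, was next (-0.24 ± 0.09 SE, limma adjusted p = 0.2247). A p that misses the threshold does not show that the levels were alike.

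With foxo added, 25 of 32 members fell against WT and none rose (limma), with a median of -0.436 and a background of 19.1% of all genes lower. By role, 6 of 6 N module genes fell, 6 of 8 of the Q module, 4 of 7 of the proximal arm, 8 of 9 of the distal arm and 1 of the other 2. For 30 members the ranges of the libraries did not overlap, against 23.2% of all genes. ND-13A gave 602.5, 639.5 and 598.5 normalised reads in WT, 505.4, 463.2 and 456.7 in daw 3' UTR, 318.2, 369.7 and 346.7 in daw 3' UTR foxo, and 773.9, 606.2 and 753.6 in Atg8a. The 3 groups of WT, of daw 3' UTR, and of the latter with foxo do not overlap, and the change from WT to the last was -0.83 ± 0.10, the largest of all members (SE, limma adjusted p = 3.436e-05).

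ND-MLRQ gave 4217, 4439 and 4592 normalised reads in WT and 2761, 2764 and 2838 in daw 3' UTR foxo (log2 -0.66 ± 0.08 SE, limma adjusted p = 2.949e-05). ND-B18 went from 944.2, 915.6 and 915.8 to 634.2, 544.9 and 517.9 (-0.71 ± 0.12 SE, limma adjusted p = 0.0002542). ND-B14.5B, the counterpart of the membrane arm subunit NDUFC2, went from 801.1, 876.9 and 899.6 to 535.6, 547.8 and 554.8 (-0.65 ± 0.09 SE, limma adjusted p = 5.267e-05). Each of the 3 had every mutant library below every WT library. ND-30 (NDUFS3) had the Q module's largest called change, -0.52, and ND-20 its smallest, -0.38 (limma adjusted p = 0.000941 and 0.002049). The smallest called changes of the N module, distal and proximal arms were those of ND-75 (-0.38), ND-SGDH (NDUFB5, -0.30) and ND-19 (-0.31), with limma adjusted p = 0.004422, 0.01745 and 0.03577.

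Between the mutants themselves, 19 of 32 members were lower in daw 3' UTR foxo than in daw 3' UTR (limma), with a median of -0.309 and a background of 16.2% lower. All 6 N module genes fell, led by ND-24, which gave 2241, 2163 and 1997 normalised reads in daw 3' UTR and 1537, 1427 and 1513 in daw 3' UTR foxo (-0.51 ± 0.08 SE, limma adjusted p = 0.0002589). Also named by the largest or smallest called change of a role were ND-75 (-0.29), ND-13B (-0.38), ND-20 (-0.26), ND-MLRQ (-0.49), ND-B18 (-0.59), ND-B22 (-0.32), ND-B14.5B (-0.48) and ND-MWFE (-0.34), with limma adjusted p from 0.0004664 for ND-MLRQ to 0.03162 for ND-MWFE. Without daw 3' UTR replicate 1, the highest library of its group for 29 of 32 members, 10 members fell and the median was -0.244. In that fit 23.1% of all genes were called in either direction, against 2532 of 8271 genes in the main fit.

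In these libraries markers of blood cells moved too. All 6 tested hemocyte markers rose in daw 3' UTR foxo, with sums of 6628 to 8238 against 2359 to 2692 in WT. Of 24 muscle markers 13 rose and 6 fell, and the sums were 202200 to 254200 against 193900 to 220900. Complex I over muscle markers was 0.174 to 0.204 against 0.256 to 0.284. Of 8 gut markers 4 fell, and of 4 neuron markers 3. Their part in the complex I values was not tested.

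Against the WT of its own set, every mutant group of the mir-252 and foxo set had a lower mean for 31 of 31 members. The lowest mean was that of mir-252 foxo for all 31, and mir-252 foxo with daw/+ lay between it and WT for all 31. The groups labelled mir-252 and foxo took no fixed order, with foxo lower for 14 members and higher for 17. For 17 members every WT library was above every library of all 4 mutant groups.

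In libraries labelled mir-252, 9 of 31 members fell (limma), with a median of -0.393 and a background of 2.51% lower, and 28 had no overlap with WT against 11.2% of all genes. ND-ACP gave 1690, 1665 and 1861 normalised reads in WT and 1214, 1077 and 1250 in mir-252 (-0.56 ± 0.10 SE, limma adjusted p = 0.002563). ND-B15 gave 967.1, 895 and 953.9 in WT and 626.4, 577.4 and 619.2 in mir-252, the largest change of the called members (-0.63 ± 0.12 SE, limma adjusted p = 0.004381). The mutant libraries of both genes lay well below WT. ND-39 (NDUFA9, -0.53) and ND-23 (-0.47) fell in the Q module, ND-24 (-0.50) in the N module, ND-B14.5B (-0.47) and ND-42 (NDUFA10, -0.44) in the proximal arm and ND-B22 (-0.50) in the distal arm, with limma adjusted p from 0.0166 for ND-39 to 0.02957 for ND-B14.5B. The count rests on single libraries. It was 2 without WT column c5905_1, 3 without c5905_3, 5 without mir-252 replicate 1 and 2 without replicate 2, with medians of -0.392, -0.359, -0.402 and -0.341. Calls over all genes, in either direction, were 2.77%, 3.47%, 2.77% and 3.05% in these fits, and 367 of 8357 genes in the main fit.

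In libraries labelled foxo 13 members fell (limma), with a median of -0.37 and a background of 6.28% lower, and 28 did not overlap with WT against 17.3% of all genes. ND-B17, the counterpart of NDUFB6, gave 1421, 1530 and 1631 normalised reads in WT and 819.9, 922 and 859.9 in foxo (-0.82 ± 0.15 SE, limma adjusted p = 0.0009813). ND-13A gave 699.7, 715.4 and 835.5 in WT and 459.2, 427.6 and 460.8 in foxo (-0.73 ± 0.14 SE, limma adjusted p = 0.001674). For both genes the foxo libraries were tight and far below WT. The other named members that fell were ND-24 (-0.50), ND-B14.5A (NDUFA7, -0.50), ND-ACP (-0.50), ND-MLRQ (-0.46), ND-B22 (-0.45), ND-B14.5B (-0.56) and ND-42 (-0.37), with limma adjusted p from 0.003315 for ND-ACP to 0.03524 for ND-42. The count was 8 without WT column c5905_1, 8 without c5905_3 and 8 without foxo replicate 2. Calls over all genes, in either direction, were 8.59%, 7.3% and 8.46% in these fits, and 988 of 8357 genes in the main fit.

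Libraries labelled mir-252 foxo had the largest median change of the females. Of 31 members 30 fell, the exception being ND-MWFE, which was low in this set (limma), with a median of -0.854 and a background of 12.9% lower. All 31 had every mutant library below every WT library, against 21.9% of all genes. ND-B14.5B gave 1448, 1272 and 1321 normalised reads in WT, 1009, 858.3 and 1047 in mir-252, 919.4, 901.7 and 915.4 in foxo, 676.4, 640.8 and 491.4 in mir-252 foxo, and 875.2, 954.5 and 743.7 in mir-252 foxo with daw/+. The double mutant libraries were below all others of this gene, and its change from WT was -1.17 ± 0.12 (SE, limma adjusted p = 1.355e-06). ND-B17 (-1.16, limma adjusted p = 9.275e-06) and ND-13A (-1.15, limma adjusted p = 6.235e-06) led the distal arm and the N module.

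ND-51 gave 8665, 7760 and 8468 normalised reads in WT, 6981, 5725 and 6719 in mir-252, 6728, 6881 and 6748 in foxo, and 5424, 4862 and 3659 in mir-252 foxo. Its double mutant libraries lay below all those of the single mutants. ND-30 had the largest change of the Q module, -0.98, and ND-23 the smallest, -0.72 (limma adjusted p = 5.571e-05 and 0.0001643). The smallest called changes of the N module, distal and proximal arms were those of ND-B17.2 (-0.72), ND-ASHI (NDUFB8, -0.54) and ND-19 (-0.62), with limma adjusted p = 0.0003987, 0.006059 and 0.0007491. ND-MLRQ and ND-ACP fell by 0.94 and 0.91 (limma adjusted p = 3.307e-05 and 3.254e-06). Leaving out any 1 library of WT or mir-252 foxo left 30 or 31 members called, with 17.9% to 23.0% of all genes called in either direction.

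**Figure D4:**
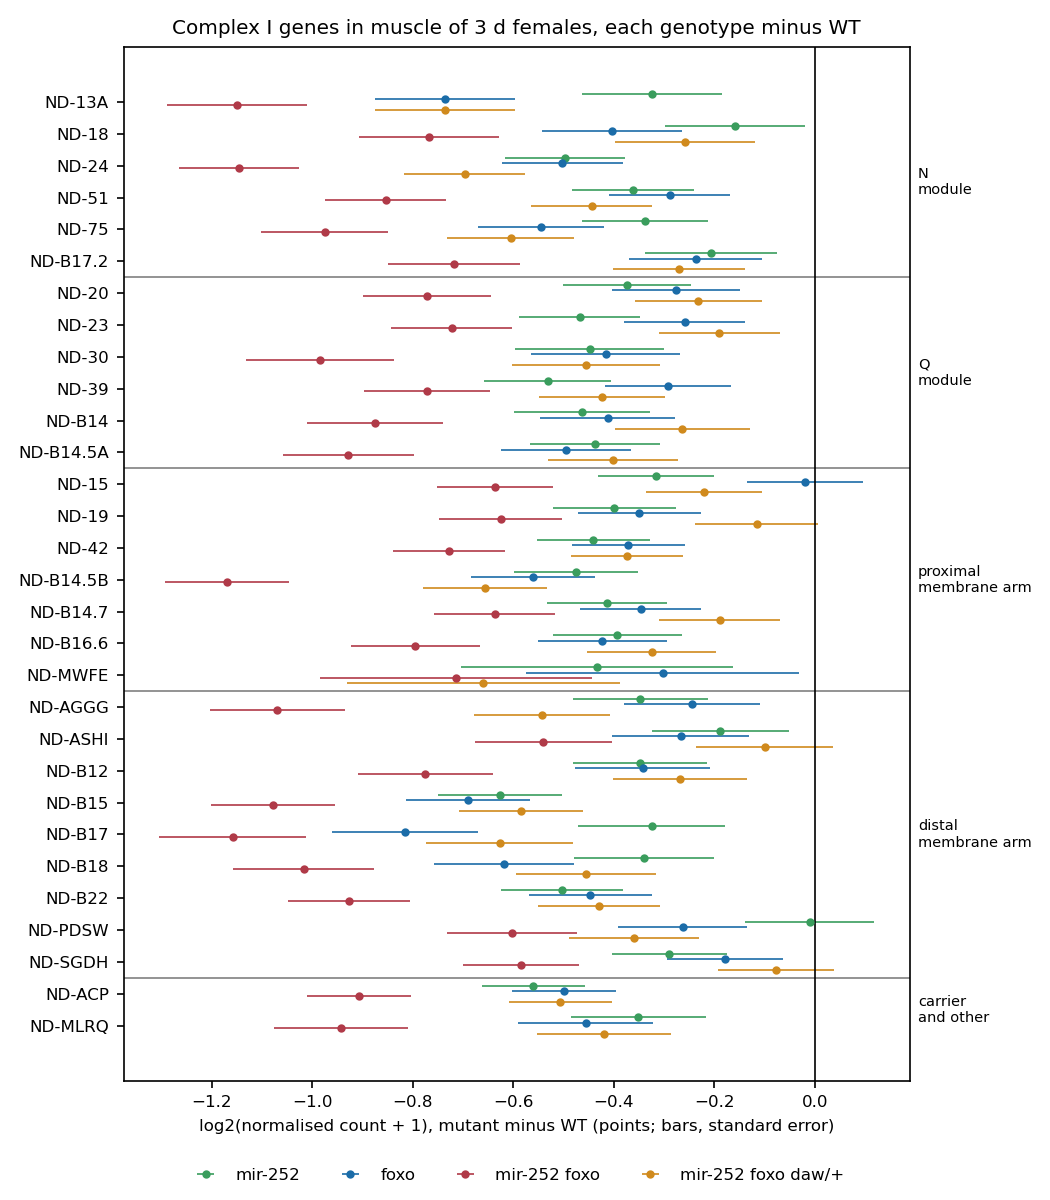
Log2 difference from WT (x axis, log2 of the normalised count plus 1) of 30 of the 31 complex I genes (y axis, by role) in the 4 mutant groups of the mir-252 and foxo set, with points for the limma estimate and bars for its standard error. The mir-252 foxo points, with a median of -0.854 over all 31 members, lie furthest from 0, and those of mir-252, foxo and mir-252 foxo with daw/+ have medians of -0.393, -0.37 and -0.419.

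The double mutant was also compared with each single mutant. Against foxo, 19 of 31 members were lower (limma), with a median of -0.432 and a background of 4.27% lower, and 25 did not overlap against 15.8% of all genes. ND-AGGG gave 309.8, 241.9 and 281.7 in foxo and 172, 143.4 and 152.6 in mir-252 foxo (-0.83 ± 0.13 SE, limma adjusted p = 0.0007595). ND-15 (NDUFS5), whose foxo libraries at 1023, 904.6 and 992.9 overlapped WT at 1008, 928 and 1021, stood at 709.1, 657.3 and 545.3 in mir-252 foxo (-0.62 ± 0.12 SE, limma adjusted p = 0.002372). In both of these genes the double mutant libraries lay below all foxo libraries. The other named falls were those of ND-24 (-0.64), ND-75 (-0.43), ND-B14.5A (-0.43), ND-MLRQ (-0.49), ND-ACP (-0.41), ND-SGDH (-0.41) and ND-B14.5B (-0.61). The count was 6 without foxo replicate 1, 7 without replicate 2, 7 without replicate 3, and 6 without mir-252 foxo replicate 3, where the median was -0.291. Calls over all genes, in either direction, were 4.99%, 5.15%, 4.82% and 3.9% in these fits, and 753 of 8357 genes in the main fit.

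Against mir-252, 22 of 31 members were lower in mir-252 foxo (limma), with a median of -0.437 and a background of 9.49% lower, and 21 did not overlap against 18.8% of all genes. ND-B17 gave 1180, 1194 and 1282 normalised reads in mir-252 and 823.2, 708.8 and 545.3 in mir-252 foxo (-0.83 ± 0.15 SE, limma adjusted p = 0.0005057). ND-13A gave 624.3, 523.1 and 652.2 in mir-252 and 412, 335.6 and 276.2 in mir-252 foxo (-0.82 ± 0.14 SE, limma adjusted p = 0.0003698). All 6 N module genes fell. The other named members were ND-51 (-0.49), ND-30 (-0.54), ND-20 (-0.40, with overlapping ranges), ND-MLRQ (-0.59), ND-ACP (-0.35), ND-B22 (-0.42), ND-B14.5B (-0.70) and ND-B16.6 (-0.40). The count was 14 without mir-252 replicate 1, 14 without replicate 3 and 11 without mir-252 foxo replicate 3, where the median was -0.299. Calls over all genes, in either direction, were 13.2%, 11.5% and 11.5% in these fits, and 1583 of 8357 genes in the main fit.

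Whether the double mutant departs from the sum of the single mutants on the log2 scale was tested as an interaction. None of 31 members passed (limma), with 2.09% of all genes called, 1 member at an unadjusted p under 0.05, and 0 called by edgeR and DESeq2. The median interaction was -0.0855, between -0.479 and 0.239. The standard errors were 0.146 to 0.383, so departures within 2 standard errors of the estimates reached from -0.859 to 0.788. ND-AGGG had the smallest p (-0.48 ± 0.19 SE, limma adjusted p = 0.2609), then ND-15 (-0.30 ± 0.16 SE, limma adjusted p = 0.4722).

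One mutant copy of daw, the gene of an activin-like ligand, was added to the double mutant. Against WT, 17 members fell in these libraries (limma), with a median of -0.419 and a background of 8.17% lower, and 20 did not overlap against 15.2% of all genes. ND-13A gave 423.4, 530.6 and 402.9 against the WT values above (-0.73 ± 0.14 SE, limma adjusted p = 0.001141). These libraries lay clear of WT. The other named falls were ND-51 (-0.44), ND-B14.5A (-0.40, with overlapping ranges), ND-ACP (-0.51), ND-MLRQ (-0.42), ND-B17 (-0.63), ND-B22 (-0.43), ND-B14.5B (-0.66) and ND-42 (-0.37). The count was 9 without WT column c5905_1, 9 without c5905_3, 11 without replicate 1 of this group and 10 without its replicate 3. Calls over all genes, in either direction, were 11.3%, 10.2%, 13.2% and 16.2% in these fits, and 1326 of 8357 genes in the main fit.

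Against mir-252 foxo, 21 of 31 members were higher with daw/+ and none lower (limma), with a median of 0.494 and a background of 2.79% higher, and 23 did not overlap against 10.5% of all genes. ND-B14 gave 807.5, 1055 and 801.4 normalised reads with daw/+, against 694, 588.4 and 468.2 without (0.61 ± 0.13 SE, limma adjusted p = 0.01313). ND-15 gave 784.6, 998.7 and 772.6 against 709.1, 657.3 and 545.3 (0.42 ± 0.12 SE, limma adjusted p = 0.04103). ND-ACP gave 1125, 1323 and 1228 against 998.6, 969 and 820.7 (0.40 ± 0.10 SE, limma adjusted p = 0.02732). In these genes the ranges stood apart, with replicate 3 of the double mutant the lowest. The other named rises were ND-18 (0.51), ND-24 (0.45), ND-B14.5A (0.53), ND-MLRQ (0.52), ND-B18 (0.56), ND-B15 (0.49) and ND-B14.5B (0.51).

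This last result rests on few libraries. In the main fit 425 of 8357 genes were called in either direction. Replicate 3 of mir-252 foxo was the lowest of its group for 30 of 31 members. Without it no member passed (limma), 1.32% of all genes were called and the median was 0.317. Replicate 2 with daw/+ was the highest of its group for 25 of 31. Without it 1 member passed, with a median of 0.388 and 3.79% of all genes called. The count was 6 without mir-252 foxo replicate 2 (2.73% of all genes) and 12 without replicate 1 of the daw/+ group (4.03%). With only the groups compared in the fit it was 0, and calls over all genes, in either direction, went from 425 to 114. The mRNA of daw stood at 422.3 ± 55.0 normalised reads with daw/+ and 430.4 ± 22.5 without (SD, n = 3).

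Other respiratory genes and other tissues' markers moved in the same libraries. In mir-252 all 12 complex V genes, 6 of 7 of complex III, 6 of 9 of complex IV and 1 of 4 of complex II fell. In foxo 5 of 12, 4 of 7, 7 of 9 and 4 of 4 fell in that order, and in mir-252 foxo 12 of 12, 7 of 7, 8 of 9 and 4 of 4. With daw/+ 12 of 12, 4 of 7, 8 of 9 and 3 of 4 were higher than in mir-252 foxo. NP15.6, the structural subunit without an ND- symbol, fell by 0.99 in mir-252 foxo and was 0.61 higher with daw/+ (limma adjusted p = 1.187e-05 and 0.0114). The assembly factor genes CIA30 and sicily did not pass in either comparison. Their log2 values were -0.27 and -0.16 in mir-252 foxo (limma adjusted p = 0.1914 and 0.6266). With daw/+ against mir-252 foxo they were 0.33 and -0.04 (limma adjusted p = 0.2421 and 0.9481). TFAM fell by 0.56 in mir-252 foxo and by 0.47 with daw/+ (limma adjusted p = 0.001079 and 0.008307), and srl rose by 0.66 in foxo (limma adjusted p = 0.02785).

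Of 6 tested hemocyte markers 6 rose in mir-252 foxo, 4 in foxo and 2 with daw/+, with sums of 2987 to 3472 in WT and 5712 to 6986 in mir-252 foxo. Gut markers fell in mir-252 for 6 of 8, with sums of 33150 to 37450 against 48960 to 57760 in WT, and for 5 of 8 in mir-252 foxo. Of 4 tested genes of the ovary and yolk protein list, the Yp genes among them, 3 rose in foxo, in mir-252 foxo and with daw/+. The sums were 267900 to 303600 in foxo against 134000 to 162400 in WT. Muscle marker sums ran from 165400 to 215800 over the set. Complex I over muscle markers was 0.381 to 0.408 in WT, 0.292 to 0.303 in mir-252, 0.312 to 0.332 in foxo, 0.213 to 0.28 in mir-252 foxo and 0.271 to 0.335 with daw/+. The part of these markers in the complex I values was not tested.

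The axenic flies compare foxo with WT on antibiotic food. In the authors' deposited table all 32 members had a negative log2 value in foxo against WT, with a median of -0.357, between -0.77 and -0.061. Of them 7 fell at the authors' adjusted p under 0.05, against 3.24% of all 9371 genes in the authors' deposited table that were called lower, and 20 had an unadjusted p under 0.05. In the N and Q modules, the authors' deposited table gave ND-13A at -0.77 ± 0.16, ND-B14.5A at -0.59 ± 0.18 and ND-13B at -0.53 ± 0.15 (SE, adjusted p = 0.0001946, 0.01825 and 0.008916). In the membrane arm, the authors' deposited table gave ND-B17 at -0.77 ± 0.17, ND-B18 at -0.66 ± 0.18, ND-B14.5B at -0.52 ± 0.17 and ND-B12 (NDUFB3) at -0.43 ± 0.14 (SE, adjusted p = 0.0003404, 0.006548, 0.03679 and 0.04762). In the authors' deposited table foxo itself was higher, by 0.603 (adjusted p = 0.00629).

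Axenic and conventional flies were separate libraries with separate WT groups. Of the 6 axenic calls in the authors' deposited table that were measured in conventional females, 5 were also among the 13 conventional calls by limma, which is 83.3% of the former and 38.5% of the latter. These were ND-13A, ND-B14.5A, ND-B14.5B, ND-B17 and ND-B18. The same overlap over all genes was not computed, so the 83.3% and 38.5% have no background beside them. The difference between the cultures was not tested.

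**Figure D5:**
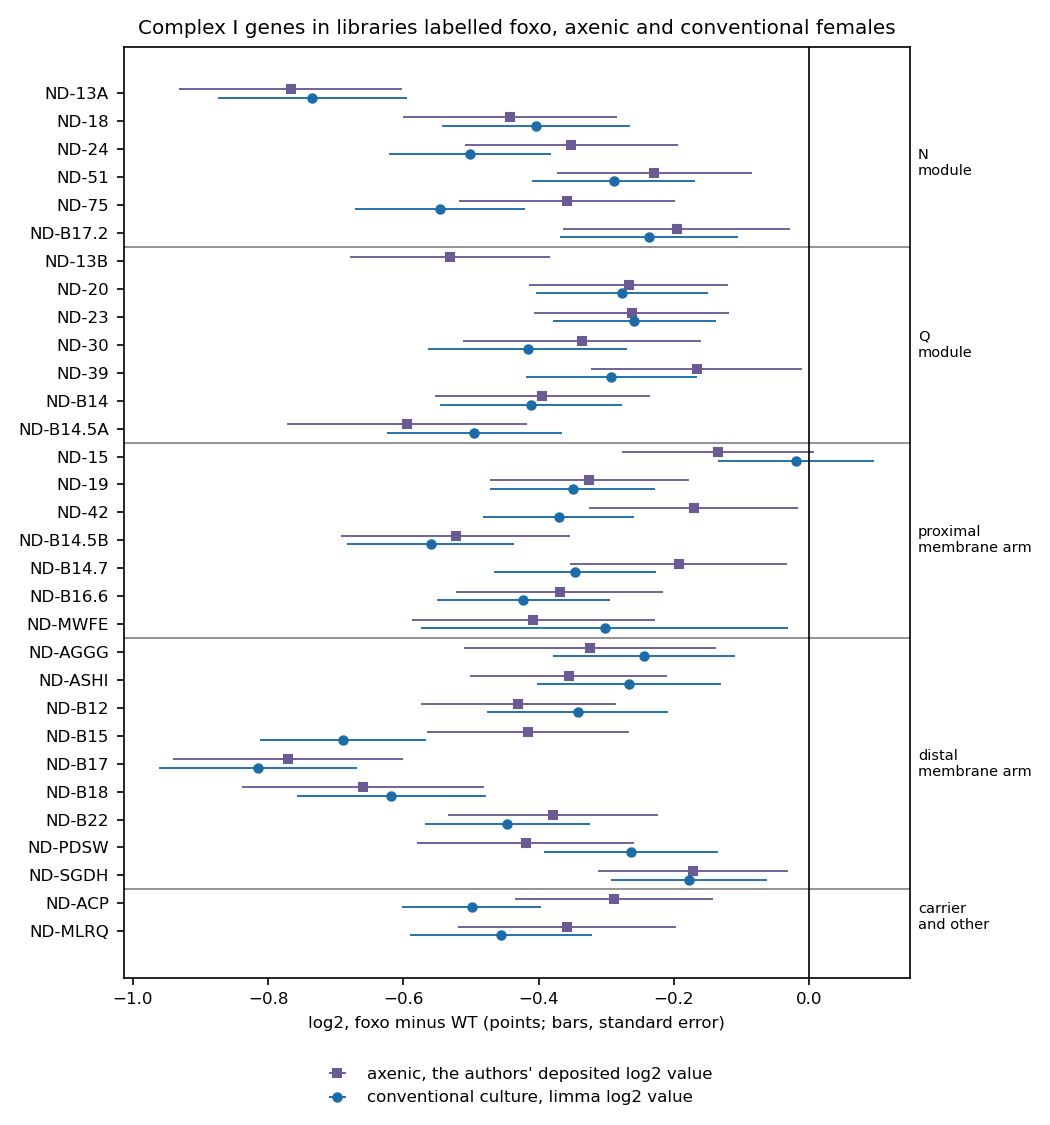
Log2 difference between foxo and WT females (x axis) of 31 of the 32 complex I genes (y axis, by role), from the authors' deposited table in axenic culture (squares) and by limma in conventional culture (circles), with standard errors as bars. All points lie below 0, and ND-13A and ND-B17 have the lowest values in both cultures, between -0.73 and -0.82.

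Among females, levels per kilobase put ND-MLRQ first in WT of both sets (8208 ± 349 and 8242 ± 323 normalised reads per kilobase, SD, n = 3). ND-MWFE gave 398.3, 391.2 and 403.6 normalised reads in the WT libraries of the Atg8a and daw set. In those of the other set it gave 23.25, 33.93 and 23.9, and the authors' deposited table for axenic females had a mean of 455.3. No test was made across these tables. Several members share exon bases with a neighbour on the other strand, the most being ND-B22 with CG31855 (26.1% of its exonic bases), and reads of such neighbours cannot be told apart without strand.

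Some of the genes named above lie as follows. In the BDGP6 annotation, the assembly also called dm6, ND-51 (FBgn0031771) spans 2L 6060842 to 6062757, ND-13A (FBgn0031684) spans 2L 5099177 to 5100288 and ND-B14.5B (FBgn0031505) spans 2L 3144953 to 3145848, all on the minus strand. ND-MLRQ (FBgn0052230) spans 3L 23339326 to 23345936 on the plus strand, and ND-75 (FBgn0017566) spans X 8248651 to 8251687 on the minus strand. The counts cover annotated exons of whole genes, so no exon, intron or UTR of them was measured apart.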

How the data were processed

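RNA of dissected muscle was sequenced after polyA selection, per the labels' protocols. Per the submitters' processing notes, the tools STAR, HTSeq and DESeq were used with genome build dm6, in versions these sources do not give. Nor do they give whether reads were counted by strand. In 3 tables the deposited signal is a normalised count per gene and library, made by the authors with size factors within each table. Dividing by the value of 1 read gave whole reads for 100% of values within 0.01. The mir-252 and foxo table uses older symbols, matched through RefSeq synonyms, and its WT columns are not tied to single samples. For axenic flies the authors' deposited table holds the log2 fold change, its standard error (entered as a score) and the p-value, raw and adjusted, beside the mean normalised count.

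The test was limma 3.58.1 (R 4.3.3) in its trend form, on log2(value + 1). Genes needed a mean of at least 10, which left 8393, 8271 and 8357. Each table was fitted with all its groups, no block, and Benjamini-Hochberg adjusted p under 0.05 over all genes with no fold minimum. Fold changes on this scale understate changes of low genes. Depth was 2838395 to 3487569 reads in males, and in the female sets 2358162 to 4023468 (Atg8a and daw) and 3294056 to 4078819 (mir-252 and foxo). Lists are described by counts and medians, with no test of a list. Levels per kilobase use exonic bases of the Ensembl annotation.

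Alternatives were a pseudocount of 8, no filter, upper quartile (0.75) rescaling, edgeR 4.0.16 and DESeq2 1.42.0 on whole reads, only the groups compared, a replicate block, and leaving out each library. The fits were tested on simulated data. The members and lists were chosen with earlier results of these data known. Named genes were every called member where at most 12 were called, otherwise the largest and smallest called change of each role, and the 2 smallest p where none was called. Members given beyond that, and the core division, were chosen after their values were seen. The values of 1 member are counted in the summaries but are not reported here on their own, nor drawn where members are shown singly.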

Additional observations from a re-analysis of the deposited data

How the results depend on the processing

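Over all members, comparisons and alternatives, 6504 values kept their side of the threshold, 369 no longer passed it, 126 passed it anew and 0 reversed a call. Values that passed in neither fit were not held to 1 direction. ND-51 at 15 d against 3 d went from a log2 of -0.239 in the main fit to 0.06 without 3 d replicate 3. When only the compared groups entered the fit, the count of called members moved to 10 at 15 d and 13 at 30 d against 3 d. It was 6 from 15 d to 30 d and 10 from 30 d to 45 d. It was 15 in mir-252, 26 in foxo and 0 for daw/+ against the double mutant. Over all genes, calls in either direction numbered 355, 1290 and 114 in these female comparisons, against 367, 988 and 425 in the main fit. In that setting the spread came from the libraries of the compared groups alone, which are fewer, and counts moved both up and down. Leaving out 1 library of the groups compared gave 23 to 30 called at 15 d, 25 to 27 at 30 d and 27 to 32 at 45 d against 3 d. It gave 0 for both later steps, for Atg8a, for daw 3' UTR and for the interaction. The 3 d libraries, replicate 3 among them, were not left out for the later steps, so those counts of 0 do not show what that library does there. It gave 23 to 26 for daw 3' UTR foxo against WT and 10 to 21 against daw 3' UTR. In the other set it gave 2 to 9 for mir-252, 8 to 10 for foxo, 30 to 31 for mir-252 foxo and 9 to 18 with daw/+ against WT, 6 to 27 for mir-252 foxo against foxo, 11 to 28 against mir-252, and 0 to 29 for daw/+ against mir-252 foxo. Over all genes, in either direction, these fits called 4.45% to 30.9% at 15 d. They called 8.21% to 42.2% at 30 d and 11.9% to 48.8% at 45 d. For the later steps the shares were 0.0357% to 0.0596% and 0.0% to 0.119%. For Atg8a, daw 3' UTR and the interaction they were 5.35% to 8.04%, 1.79% to 3.66% and 1.35% to 2.1%. Those of daw 3' UTR foxo were 27.9% to 36.8% against WT and 21.9% to 31.5% against daw 3' UTR. The cause was not tested.

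Same-numbered replicates did not deviate together beyond a correlation of 0.0856 in males, and 5 of 18 pairs passed 0.1 in each female set, against 6 and 3 of 36 pairs with different numbers (Atg8a and daw, then mir-252 and foxo). A library correlated best with its own number in 1, 5 and 9 of 12 cases (males, then the female sets), a hint from the data in the last set. Pairing needed every same-numbered pair to pass 0.1, so no set was treated as paired. With the replicate block, 27, 27 and 27 members were called at 15, 30 and 45 d, 0 for both later male steps, 0 for Atg8a and for daw 3' UTR, 26 and 19 for daw 3' UTR foxo against WT and daw 3' UTR, 16 and 21 for mir-252 foxo against foxo and mir-252, and 17 for daw/+ against mir-252 foxo. Over all genes, calls in either direction numbered 536, 968 and 1391 at these ages, against 669, 1132 and 1586 in the main fit. For both later male steps they numbered 6 and 1, against 7 and 0. For the female comparisons, in the same order, they numbered 782, 246, 2881, 2454, 738, 1645 and 429. The main fit gave 818, 258, 2960, 2532, 753, 1583 and 425. Against WT of the mir-252 and foxo set no paired analysis was possible because the numbers in its column names are not those of the labelled WT replicates. Depth and 3 libraries a group limit what small changes can pass.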
